A study of Homo sapiens with 14 samples.

Results

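The inhibitors of apoptosis (IAPs) and the regulators of death receptor signalling were followed in Mel202 cells treated with ICG-001. Of the 8 genes of this group, 7 had a probe named for them in the array annotation used: survivin (BIRC5), BIRC2, BIRC6, XIAP, CFLAR, DIABLO and TNFRSF10B. BIRC3 had none, and its expression was not analysed here. Every probe annotated to these genes was taken and kept on its own. That gave 13 probes, of 16545 probes with 1 gene name for 12306 genes in all. BIRC6, XIAP and CFLAR had 1 probe each and the other 4 genes had several.

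Mel202 is a single cell line from a locally recurrent primary uveal melanoma. It carries the Q209L and R210K changes in GNAQ, a G protein alpha subunit, and is wild type for BRAF, in the controls as in the treated cells. ICG-001 was given at 3 µM in DMSO, and the control cells received DMSO alone, each for 24 h or 48 h in 6-well plates. RNA was amplified, labelled with biotin and hybridised to 14 Illumina bead arrays. DMSO had 3 arrays and ICG-001 had 4 at each time. Arrays with a shared number in their titles were averaged, so that each time point had 2 replicates of DMSO and 3 of ICG-001. Nothing in the labels says that these replicates were separate cultures, so a p-value here measures the spread between samples that may be technical.

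IAP proteins carry BIR domains, and several of them, XIAP foremost, bind and block caspases, the proteases that carry out apoptosis. DIABLO is released from mitochondria and displaces IAPs from caspases. TNFRSF10B is a receptor for the ligand TRAIL, and CFLAR, which resembles caspase-8 but lacks its activity, holds back the signal from such receptors. Survivin also works in mitosis, as a subunit of the chromosomal passenger complex. ICG-001 binds CBP, a coactivator of CREB and of β-catenin, and survivin has been reported as a target of the compound.

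For the promoters of the group, 16 windows of 250 bases before an annotated start were found in RefSeq (build GRCh38.p14) for BIRC2, BIRC3, BIRC6, XIAP, CFLAR and DIABLO. BIRC5 had no window there, and TNFRSF10B was not searched. The 16 windows were searched on both strands for the CREB site TGACGTCA, for the NF-κB consensus and for the TCF core CTTTGA. No other motif was searched for, and overlaps of the windows were not removed. The CREB site lay in 1 of the 16 windows, 1 of 2 of BIRC2, against 1.65% of the 35116 windows of all genes. The NF-κB consensus lay in 1 of 4 windows of CFLAR, 1 of 2 of BIRC6 and in the single window of BIRC3. It lay in no window of BIRC2, XIAP or DIABLO, and in 9.96% of all windows. The TCF core was found in 1 of the 16 windows, 1 of 4 of CFLAR, against 11.2% of all windows. Both stretches below are on the plus strand and are shown as 1 example each of the CREB and NF-κB matches; those of BIRC6 and BIRC3 are not shown. The capitals mark the match, at chr11:102347207-102347214 for BIRC2 and chr2:201118619-201118628 for CFLAR.
BIRC2, chr11:102347124-102347214: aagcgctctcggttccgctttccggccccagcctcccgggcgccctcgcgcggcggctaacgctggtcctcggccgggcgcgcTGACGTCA
CFLAR, chr2:201118609-201118638: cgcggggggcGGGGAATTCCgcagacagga
A match describes the sequence and says nothing of what binds there.

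Signals are given as log2 values after background correction and quantile normalization. A probe was tested if its detection p-value, against the negative controls of its array, was below 0.05 on at least 3 arrays, which 22158 probes did, all 13 of this group among them. "Rose" and "fell" are used for an adjusted p below 0.05 in limma, two-sided, with the Benjamini-Hochberg correction over those 22158 probes. A log2 change is ICG-001 minus DMSO, with the standard error (SE) of the fit. Each array detected 17619 to 20124 probes at that level, and median signals ran from 113.1 to 139.1. Treatment and control arrays parted along the first principal component (38.5% of the variance). Along the second (21.4%) the 4 arrays whose title has the letter b stood apart, 1 per group; on these 17619 to 18332 probes were detected, against 18365 to 20124 on the others. Of the melanocyte markers, all 6 with a tested probe, among them MLANA, PMEL and SOX10, were detected on at least 3 arrays of every group, and SOX10 fell (log2 -0.57 at each time). Of the markers of other cell types, 11 of 24 had a tested probe. Among these LUM (fibroblast; log2 -1.83 at 24 h and -2.22 at 48 h) and the brightest probe of CD68 (immune; -0.58 and -0.49; a dimmer one was called the other way) fell and BEST1 (retinal pigment epithelium; 0.43 and 1.00) rose at both times, and at 24 h CDH1 (epithelial; -0.78) fell and TTR (retinal pigment epithelium; 0.74) rose. Of the fibroblast markers COL1A2 and PDGFRB, of the endothelial markers PECAM1, VWF and CDH5, and of the immune markers PTPRC and CD3E had no annotated probe. The part of other cells in the results below was not tested.

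ICG-001 moved few of these probes at either time. At 24 h, 1 of 13 rose (TNFRSF10B) and 1 fell (DIABLO), which is 15.4% of them. Of all probes tested 17.1% were called, 8.8% as higher and 8.32% as lower. At 48 h, 2 rose (TNFRSF10B and BIRC5) and 0 fell, again 15.4%, against 18.7% of all probes (9.44% higher and 9.25% lower). Both shares lie close to those of all probes. The median log2 change over the 13 probes was 0.03 at 24 h and 0.17 at 48 h, with -0.01 and -0.02 over all probes. The replicates of ICG-001 and DMSO did not overlap for 7 of 13 probes at 24 h (45.5% of all probes) and for 6 of 13 at 48 h (49.1% of all probes). In the mean of both effects, 1 probe rose and 1 fell, against 33.2% of all probes (16.5% higher and 16.7% lower).

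**Figure D1:**
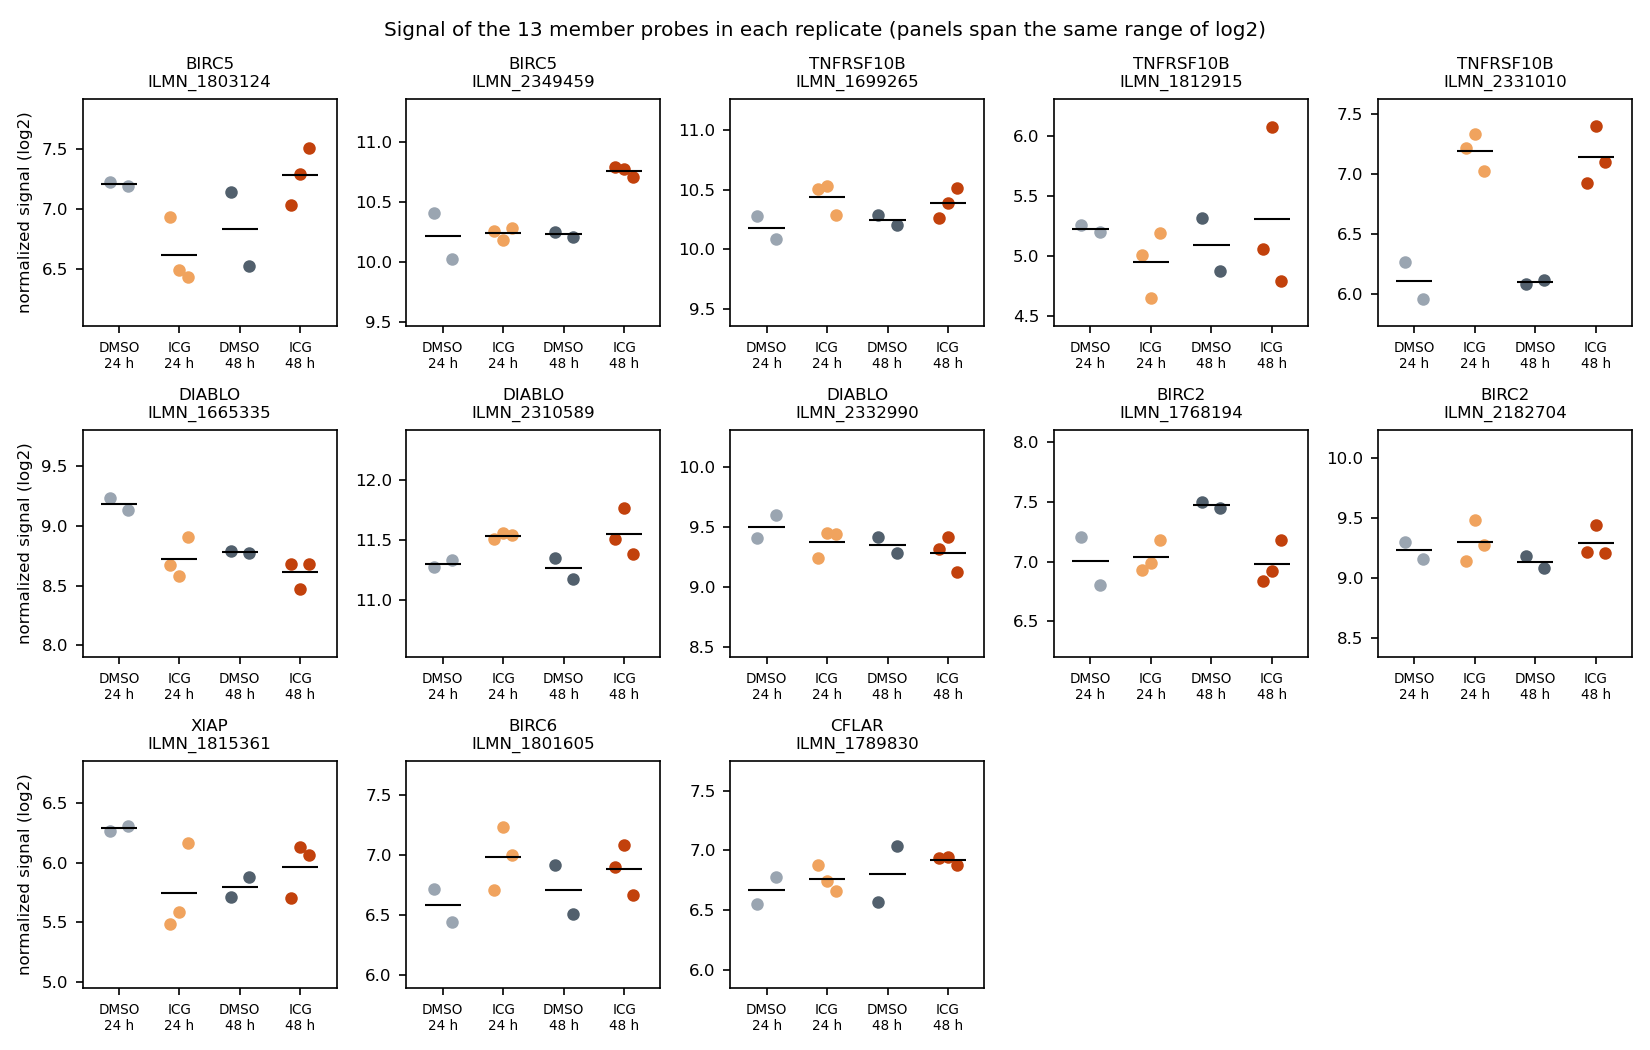
Normalized signal (log2, vertical axis) of each of the 13 probes in each replicate, by treatment and time; a point is a replicate, a bar its group mean, and every panel spans the same log2 range. TNFRSF10B ILMN_2331010 lies above every DMSO value in all 6 ICG-001 replicates, and BIRC5 ILMN_2349459 is raised in the 3 ICG-001 replicates of 48 h.

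BIRC5, survivin, was measured by a pair of probes. The probe ILMN_2349459 (transcript record NM_001168) read 10.41 and 10.03 in DMSO at 24 h and 10.25, 10.18 and 10.29 in ICG-001 at 24 h. At 48 h it read 10.25 and 10.21 in DMSO and 10.79, 10.77 and 10.71 in ICG-001. All 3 ICG-001 values of 48 h lay above all other replicates of this probe, while the groups of 24 h overlapped.

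The probe rose 1.44-fold at 48 h (log2 change 0.53 ± 0.14 SE, adjusted p = 0.0228), with a 95% confidence interval of 0.22 to 0.83. At 24 h its log2 change was 0.02 (interval -0.28 to 0.33, adjusted p = 0.935). The call of BIRC5 at 48 h was lost when any of 4 replicates was left out: the averaged pair of DMSO (adjusted p = 0.100), DMSO replicate 3 (0.120), ICG-001 replicate 1 (0.0659) or ICG-001 replicate 2 (0.0578). Without the 4 arrays ending in b it held, with a log2 change of 0.52 (adjusted p = 0.0273).

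The second BIRC5 probe, ILMN_1803124 (NM_001012271), read 7.22 and 7.19 in DMSO and 6.93, 6.49 and 6.43 in ICG-001 at 24 h. At 48 h its values were 7.14 and 6.52 in DMSO and 7.04, 7.29 and 7.51 in ICG-001. Thus ICG-001 lay below DMSO at 24 h with no overlap, and at 48 h the groups overlapped. Neither difference passed the test, with log2 changes of -0.59 ± 0.22 SE at 24 h (adjusted p = 0.0861) and 0.45 ± 0.22 SE at 48 h (adjusted p = 0.182). The 24 h change of BIRC5 by this probe passed with the strict filter on dim probes (adjusted p = 0.0495) and was -0.24 in the authors' processed values (0.0888). Its 48 h change was 0.76 without the averaged DMSO pair (adjusted p = 0.0855) and 0.14 without DMSO replicate 3 (0.773). The signal of this probe was lower on the b array in 4 of 4 pairs of averaged arrays, by 0.24 on average. That of ILMN_2349459 was also lower in 4 of 4, by 0.11 on average.

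Both BIRC5 probes had a higher effect at 48 h than at 24 h, by 0.51 ± 0.20 SE for ILMN_2349459 (unadjusted p = 0.0251) and 1.04 ± 0.31 SE for ILMN_1803124 (unadjusted p = 0.00616). Neither passed over all probes (adjusted p = 0.968 for each). In this test of the difference in effect between the times, limma called 0 of 22158 probes, and 5.05% of all probes had an unadjusted p below 0.05. Of the 13 probes here, 4 had one: both of BIRC5, XIAP and BIRC2 ILMN_1768194. Under ICG-001 alone, ILMN_2349459 was 0.52 ± 0.12 SE higher at 48 h than at 24 h (adjusted p = 0.233) and ILMN_1803124 was 0.67 ± 0.19 SE higher (adjusted p = 0.333).

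Of 7 measured genes that hold survivin in the chromosomal passenger complex or work beside it, 0 rose and 4 fell at 24 h, and 0 rose and 2 fell at 48 h. With the brightest probe standing for a gene, 19.7% of all 11679 genes were called at 24 h, 8.55% of them all as lower, and 21.6% at 48 h, 9.56% as lower. The median log2 change of the 7 genes was -0.80 at 24 h and -0.30 at 48 h, with 0.02 and 0.01 over all genes. Since the list was chosen with earlier results of these data known, its counts beside those of all genes are not a test. At 24 h the kinase AURKB, the catalytic subunit, fell 1.92-fold (log2 -0.94 ± 0.14 SE, adjusted p = 0.00198). INCENP, the scaffold, fell 1.82-fold (adjusted p = 0.0129), the mitotic kinase AURKA 1.75-fold (0.0103) and the subunit CDCA8, borealin, 1.74-fold (0.00259). Without DMSO 24 h replicate 1 the calls of INCENP (adjusted p = 0.0695) and AURKA (0.0707) ended.

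At 48 h INCENP fell 1.69-fold (adjusted p = 0.0205) and CDCA8 1.38-fold (adjusted p = 0.0286). AURKB had a log2 change of -0.20 (adjusted p = 0.367). AURKA had one of -0.49 (adjusted p = 0.0723), which passed under 9 of 22 alternatives. The INCENP call at 48 h ended without the averaged DMSO pair (adjusted p = 0.0537), DMSO replicate 3 (0.155), ICG-001 replicate 2 (0.0636) or the averaged ICG-001 pair (0.0531). That of CDCA8 ended without the averaged DMSO pair (0.150), DMSO replicate 3 (0.105), ICG-001 replicate 1 (0.0906) or the averaged ICG-001 pair (0.0624), and without the arrays ending in b (0.0627).

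TNFRSF10B, the TRAIL receptor also called DR5, was the member with the largest log2 changes, on 1 of its 3 probes. The probe ILMN_2331010 (NM_147187) read 6.27 and 5.96 in DMSO and 7.22, 7.33 and 7.03 in ICG-001 at 24 h. The 48 h values were 6.08 and 6.12 in DMSO and 6.93, 7.40 and 7.10 in ICG-001. Every ICG-001 replicate lay above every DMSO replicate at both times.

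This probe rose 2.11-fold at 24 h (log2 1.08 ± 0.17 SE, adjusted p = 0.00254) and 2.06-fold at 48 h (log2 1.05 ± 0.17 SE, adjusted p = 0.00246). The effect at 48 h minus that at 24 h was -0.04 (interval -0.56 to 0.49). The calls held under each of its 21 alternatives, but the size depended on the background correction. In the authors' processed values the log2 change of TNFRSF10B ILMN_2331010 was 0.40 at 24 h and 0.38 at 48 h, and without background correction 0.53 and 0.51. Its uncorrected signals, 174.1 to 253.1, stood against array medians of 113.1 to 139.1.

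The other probes of TNFRSF10B did not pass. ILMN_1699265 (NM_003842) read 10.28 and 10.08 in DMSO and 10.50, 10.53 and 10.29 in ICG-001 at 24 h. After 48 h the probe read 10.28 and 10.21 in DMSO and 10.26, 10.39 and 10.51 in ICG-001. The groups narrowly failed to overlap at 24 h and overlapped at 48 h, with log2 changes of 0.26 (adjusted p = 0.233) and 0.14 (adjusted p = 0.528). In the mean effect the log2 change of ILMN_1699265 was 0.20 ± 0.10 SE (adjusted p = 0.146), which passed under 3 of 22 alternatives. ILMN_1812915 (NM_003842) was detected on 5 of 14 arrays, and its log2 changes of -0.28 and 0.21 had intervals of -0.98 to 0.42 and -0.49 to 0.91.

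Probes of 1 gene were therefore compared with each other, a test added after these values were seen. Among 4990 pairs of probes of 3142 genes, the ICG-001 effect differed within a pair in 11.8% at 24 h, 16.1% at 48 h and 32.1% in the mean effect (limma, adjusted over all pairs). The effect of BIRC5 ILMN_1803124 minus that of ILMN_2349459 was -0.62 ± 0.25 SE at 24 h (adjusted p = 0.123). At 48 h it was -0.08 ± 0.25 SE (adjusted p = 0.861), and neither difference passed. For TNFRSF10B the effect of ILMN_2331010 exceeded that of ILMN_1699265 by 0.82 ± 0.18 SE at 24 h (adjusted p = 0.0153) and by 0.90 ± 0.18 SE at 48 h (adjusted p = 0.00818). In the mean effect the excess was 0.86 ± 0.13 SE (adjusted p = 6.26e-04), a call that held under all 16 alternatives run. Its size depended on the processing and ran from 0.21 to 0.90 over them. In the authors' values the TNFRSF10B calls at 24 h and 48 h ended (adjusted p = 0.230 and 0.0621), and they also ended without the averaged DMSO arrays of the same time (0.0731 and 0.0673). At 24 h the TNFRSF10B call also ended without background correction (0.0842) and without DMSO replicate 1 (0.0502).

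Of 5 measured genes listed as acting on TNFRSF10B in cell stress, 3 rose and 0 fell at 24 h, and 4 rose and 0 fell at 48 h. Their median log2 change was 0.76 at 24 h and 0.66 at 48 h. Of all genes, 11.2% and 12.0% were called higher. The list was chosen with earlier results of these data known, so this comparison is not a test of it. TRIB3, a pseudokinase induced in the stress response, rose 3.20-fold at 24 h (log2 1.68 ± 0.16 SE, adjusted p = 3.06e-04) and 4.14-fold at 48 h (adjusted p = 7.04e-05). The transcription factor ATF4 rose 1.82-fold at 24 h and 1.76-fold at 48 h (adjusted p = 0.00193 and 0.00212). SP1, a general activator, rose 1.70-fold and 1.57-fold (adjusted p = 0.0119 and 0.0217). DDIT3, or CHOP, named after its values were seen, had log2 changes of -0.14 (adjusted p = 0.681) and 0.66 (adjusted p = 0.0399). That DDIT3 call ended without any 1 of the replicates of 48 h (adjusted p of 0.0587 to 0.168), without ICG-001 24 h replicate 4 (0.0524), with 75th percentile scaling (0.0503) and with no filter (0.0737). The repressor YY1 had log2 changes of 0.49 and 0.56 (adjusted p = 0.157 and 0.105). For SP1 the call at 24 h ended without DMSO 24 h replicate 1 (adjusted p = 0.0628), and that at 48 h without the averaged 48 h pair of DMSO (0.206) or ICG-001 48 h replicate 1 (0.0730).

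**Figure D2:**
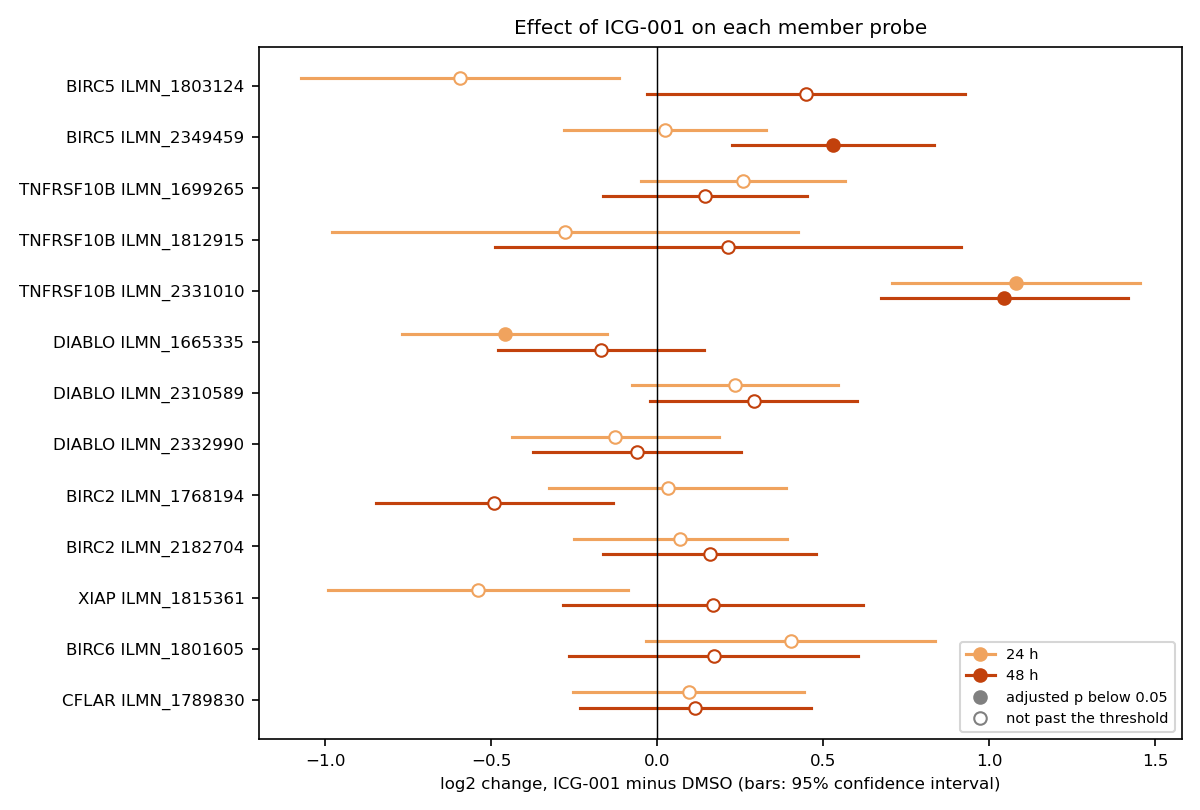
Log2 change of each of the 13 probes, ICG-001 minus DMSO, at 24 h and 48 h (horizontal axis), with the 95% confidence interval of the fit as a bar and filled points for an adjusted p below 0.05. TNFRSF10B ILMN_2331010 is filled at both times, BIRC5 ILMN_2349459 at 48 h and DIABLO ILMN_1665335 at 24 h.

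DIABLO, the antagonist of IAPs, was measured by 3 probes, and they did not move together. ILMN_1665335 (NM_138930) read 9.23 and 9.13 in DMSO and 8.67, 8.58 and 8.91 in ICG-001 at 24 h. Its 48 h signals were 8.79 and 8.77 in DMSO and 8.68, 8.47 and 8.68 in ICG-001. ICG-001 lay below DMSO at both times, and the DMSO values of 48 h lay below those of 24 h.

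That probe of DIABLO fell 1.38-fold at 24 h (log2 -0.46 ± 0.14 SE, adjusted p = 0.0456), and its log2 change at 48 h was -0.17 (interval -0.48 to 0.14, adjusted p = 0.447). In the mean effect it fell by 0.32 ± 0.10 SE on the log2 scale (adjusted p = 0.0315). The call at 24 h ended under 10 of 21 alternatives, with an adjusted p of up to 0.161. These included leaving out DMSO 24 h replicate 1 (0.161), the averaged DMSO pair (0.106), the averaged ICG-001 pair (0.113) or ICG-001 replicate 3 (0.131) of 24 h. At 48 h they were either DMSO replicate (0.0624), ICG-001 replicate 1 (0.0610) or the averaged ICG-001 pair (0.0598), which change the shared spread only. The DIABLO call at 24 h also ended with the title letter b as a term of the model (adjusted p = 0.0974) and with array weights (0.0679).

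ILMN_2310589, annotated to the same transcript record of DIABLO, read 11.27 and 11.34 in DMSO and 11.51, 11.56 and 11.55 in ICG-001 at 24 h. At 48 h it read 11.35 and 11.18 in DMSO and 11.51, 11.77 and 11.39 in ICG-001. ICG-001 lay above DMSO at both times, but the log2 changes of 0.23 and 0.29 did not pass (adjusted p = 0.293 and 0.182). In the mean effect ILMN_2310589 was higher by 0.26 ± 0.10 SE on the log2 scale (adjusted p = 0.0661). That did not pass, but it passed under 9 of 22 alternatives. ILMN_2332990 (NM_019887) had log2 changes of -0.13 and -0.06 (adjusted p = 0.599 and 0.808). Between the first pair the mean effect differed by 0.58 ± 0.15 SE, that of ILMN_1665335 being the lower (adjusted p = 0.0112), and this held under all 16 alternatives. The same difference for DIABLO at 24 h alone was -0.69 (adjusted p = 0.0502).

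BIRC2, or cIAP1, is a ubiquitin ligase of tumour necrosis factor signalling. Its probe ILMN_2182704 (NM_001166) read 9.30 and 9.16 in DMSO and 9.14, 9.49 and 9.28 in ICG-001 at 24 h. The 48 h values were 9.18 and 9.09 in DMSO and 9.22, 9.45 and 9.21 in ICG-001. The groups overlapped at 24 h and not at 48 h, and the log2 changes of 0.07 and 0.16 did not pass (adjusted p = 0.797 and 0.502).

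The second BIRC2 probe, ILMN_1768194, also of NM_001166, read 7.20 and 6.80 in DMSO and 6.93, 6.99 and 7.18 in ICG-001 at 24 h. After 48 h the probe read 7.50 and 7.45 in DMSO and 6.84, 6.92 and 7.18 in ICG-001. The DMSO values of 48 h were the highest of this probe, above every other replicate. Its log2 change was 0.03 at 24 h and -0.49 ± 0.16 SE at 48 h (adjusted p = 0.0581). At 48 h it passed under 12 of its 21 alternatives. From 24 h to 48 h in DMSO, BIRC2 ILMN_1768194 differed by 0.47 ± 0.18 SE (adjusted p = 0.744). The effects of both BIRC2 probes at 48 h differed by 0.65 ± 0.20 SE (adjusted p = 0.0491), a call that ended under 8 of 16 alternatives. Those were the fits without either DMSO replicate of 48 h, without ICG-001 replicate 1 or 2 of 48 h, without any of the ICG-001 replicates of 24 h and without the arrays ending in b (adjusted p up to 0.191).

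The remaining members did not pass at either time. XIAP, the most direct caspase inhibitor of the family, was measured by ILMN_1815361 (NM_001167). It read 6.26 and 6.31 in DMSO and 5.49, 5.58 and 6.16 in ICG-001 at 24 h, and 5.71 and 5.88 in DMSO and 5.71, 6.13 and 6.06 in ICG-001 at 48 h. ICG-001 lay below DMSO at 24 h, with replicate 4 close to DMSO, and the groups overlapped at 48 h. The log2 changes were -0.54 ± 0.20 SE (adjusted p = 0.0957) and 0.17 ± 0.20 SE (adjusted p = 0.624). Without ICG-001 24 h replicate 4 the change of XIAP at 24 h was -0.75 and passed (adjusted p = 0.0221). It was -0.61 and passed with every array as a replicate (adjusted p = 0.0346) and with the title number as a random block (0.0410). Without the arrays ending in b it was -0.40 (adjusted p = 0.207), and in the authors' processed values -0.15 (0.142). The XIAP probe was detected on 14 of 14 arrays, with uncorrected signals of 138.7 to 209.6 against array medians of 113.1 to 139.1.

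BIRC6 encodes a very large IAP that joins ubiquitin conjugation to caspase control. Its probe ILMN_1801605 (NM_016252) read 6.71 and 6.44 in DMSO and 6.71, 7.23 and 7.00 in ICG-001 at 24 h. Its 48 h signals were 6.91 and 6.51 in DMSO and 6.90, 7.08 and 6.66 in ICG-001. The groups overlapped at both times, with log2 changes of 0.40 (interval -0.03 to 0.84, adjusted p = 0.193) and 0.17 (interval -0.27 to 0.60, adjusted p = 0.605).

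CFLAR encodes the brake on caspase-8 at the receptor. Its probe ILMN_1789830 (NM_003879) read 6.56 and 6.78 in DMSO and 6.88, 6.74 and 6.66 in ICG-001 at 24 h. At 48 h it read 6.57 and 7.04 in DMSO and 6.94, 6.94 and 6.88 in ICG-001. The groups overlapped at both times. The log2 changes were 0.09 (interval -0.25 to 0.44, adjusted p = 0.740) and 0.11 (interval -0.23 to 0.46, adjusted p = 0.671).

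With time alone none of the 13 probes passed. In DMSO, limma called 2 of 22158 probes between 24 h and 48 h (0.00903%), and 2 of the 13 had an unadjusted p below 0.05, against 6.57% of all. In ICG-001 it called 3 probes (0.0135%), and 2 of the 13, both of BIRC5, had an unadjusted p below 0.05, against 9.31% of all. The replicates of 24 h and 48 h did not overlap for 4 of 13 probes in DMSO (33.6% of all probes) and 3 of 13 in ICG-001 (15.6% of all probes).

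Other genes of the pathway were taken from lists chosen with earlier results of these data known. The brightest probe stood for a gene. Of 73 genes listed, 50 were measured; 5 rose and 8 fell at 24 h, and 7 rose and 4 fell at 48 h. Of all genes 19.7% were called at 24 h and 21.6% at 48 h. The counts over the lists include the survivin partners and the regulators of TNFRSF10B described above. In the mean effect 9 rose and 12 fell, against 37.7% of all genes called, 20.7% as higher and 17.1% as lower.

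The melanoma IAP BIRC7, also called livin, was the 1 measured gene of 3 listed in the rest of the IAP family. It read 9.52 ± 0.36 (SD, n = 2) in DMSO and 9.10 ± 0.11 (SD, n = 3) in ICG-001 at 24 h, and 9.64 ± 0.04 (SD, n = 2) and 9.05 ± 0.16 (SD, n = 3) at 48 h. BIRC7 fell at 48 h by 0.58 ± 0.17 SE on the log2 scale (adjusted p = 0.0362) and had a log2 change of -0.42 at 24 h (adjusted p = 0.119). The BIRC7 call at 48 h ended without any 1 of the replicates of 48 h (adjusted p of 0.0553 to 0.166), without the averaged 24 h pair of ICG-001 (0.0514) and with no filter (0.0541). In the mean effect BIRC7 fell by 0.50 ± 0.12 SE (adjusted p = 0.00865), under all 22 alternatives as well.

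Of 4 measured antagonists and regulators of IAPs, 1 rose and 2 fell at 24 h, and 1 rose and 0 fell at 48 h. XAF1, which binds XIAP, rose 1.42-fold at 24 h (adjusted p = 0.0325) and 1.59-fold at 48 h (adjusted p = 0.00877). HTRA2, a mitochondrial protease that binds IAPs, fell 1.42-fold at 24 h (adjusted p = 0.0247) and had a log2 change of -0.21 at 48 h (adjusted p = 0.298). AIFM1, a mitochondrial flavoprotein that can act in cell death, fell 1.75-fold at 24 h (adjusted p = 0.0269) and had a log2 change of -0.57 at 48 h (adjusted p = 0.0911). At 24 h the XAF1 call ended without any 1 of the replicates of that time (adjusted p of 0.0569 to 0.119). The calls of HTRA2 (0.0611 to 0.107) and AIFM1 (0.0650 to 0.132) ended without either DMSO replicate, without the averaged ICG-001 pair and without ICG-001 replicate 3. With array weights the 24 h calls of XAF1 (0.0632) and AIFM1 (0.0509) ended, and that of AIFM1 also with no filter (0.0543). At 48 h the XAF1 call ended without either DMSO replicate (0.0554 and 0.0619).

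In the receptor signalling complex 1 of 5 measured genes rose at each time and 0 fell. FADD, the adaptor that joins TNFRSF10B to caspase-8, read 9.38 ± 0.03 (SD, n = 2) in DMSO and 9.88 ± 0.06 (SD, n = 3) in ICG-001 at 24 h. It rose 1.42-fold at 24 h (log2 0.51 ± 0.12 SE, adjusted p = 0.0168) and 1.48-fold at 48 h (log2 0.57 ± 0.12 SE, adjusted p = 0.00909). In the mean effect FADD rose under all 22 alternatives, while its call at 24 h ended without either DMSO replicate (adjusted p = 0.0613 and 0.0600) or ICG-001 replicate 3 (0.0517) of that time. Its call at 48 h ended without either DMSO replicate (0.0676 and 0.0544). DAXX, a nuclear adaptor, had a log2 change of -0.36 at 24 h and -0.32 at 48 h (adjusted p = 0.130 and 0.175).

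Of 3 measured death receptors and decoys besides TNFRSF10B, 0 passed at either time, and neither did TNFSF15, the 1 measured ligand. Of 8 measured genes of caspases and the apoptosome, 1 fell at 24 h and 0 passed at 48 h. CASP6, an executioner caspase, fell 1.52-fold at 24 h (adjusted p = 0.0387), and its log2 change at 48 h was -0.51 (adjusted p = 0.0703). The CASP6 call ended without the averaged 24 h pair of DMSO (adjusted p = 0.240) or any 1 ICG-001 replicate of 24 h (0.0605 to 0.0977), with no filter (0.0616) and with array weights (0.0739).

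Of 16 measured genes of the NF-κB pathway around BIRC2 and BIRC3, 0 rose and 1 fell at 24 h, and 1 rose and 1 fell at 48 h. RELA, the p65 subunit, fell by 0.58 ± 0.13 SE on the log2 scale at 24 h (adjusted p = 0.0119) and by 0.69 ± 0.13 SE at 48 h (adjusted p = 0.00465). NFKBIE, an inhibitor of the NF-κB subunits, rose 1.67-fold at 48 h (adjusted p = 0.00745) and had a log2 change of 0.33 at 24 h (adjusted p = 0.165). The kinase MAP3K7 had log2 changes of 0.48 and 0.33 (adjusted p = 0.0704 and 0.189), and NFKB1, the p50 precursor, of 0.23 and 0.30 (adjusted p = 0.233 and 0.119). The median log2 change of the 16 genes was 0.04 at 24 h and 0.03 at 48 h. Leaving out DMSO 24 h replicate 1 ended the call of RELA at 24 h (adjusted p = 0.0659), as did the title letter b as a term of the model (0.0541). Leaving out the averaged 48 h pair of DMSO ended those of RELA (0.0527) and NFKBIE (0.0599) at 48 h.

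**Figure D3:**
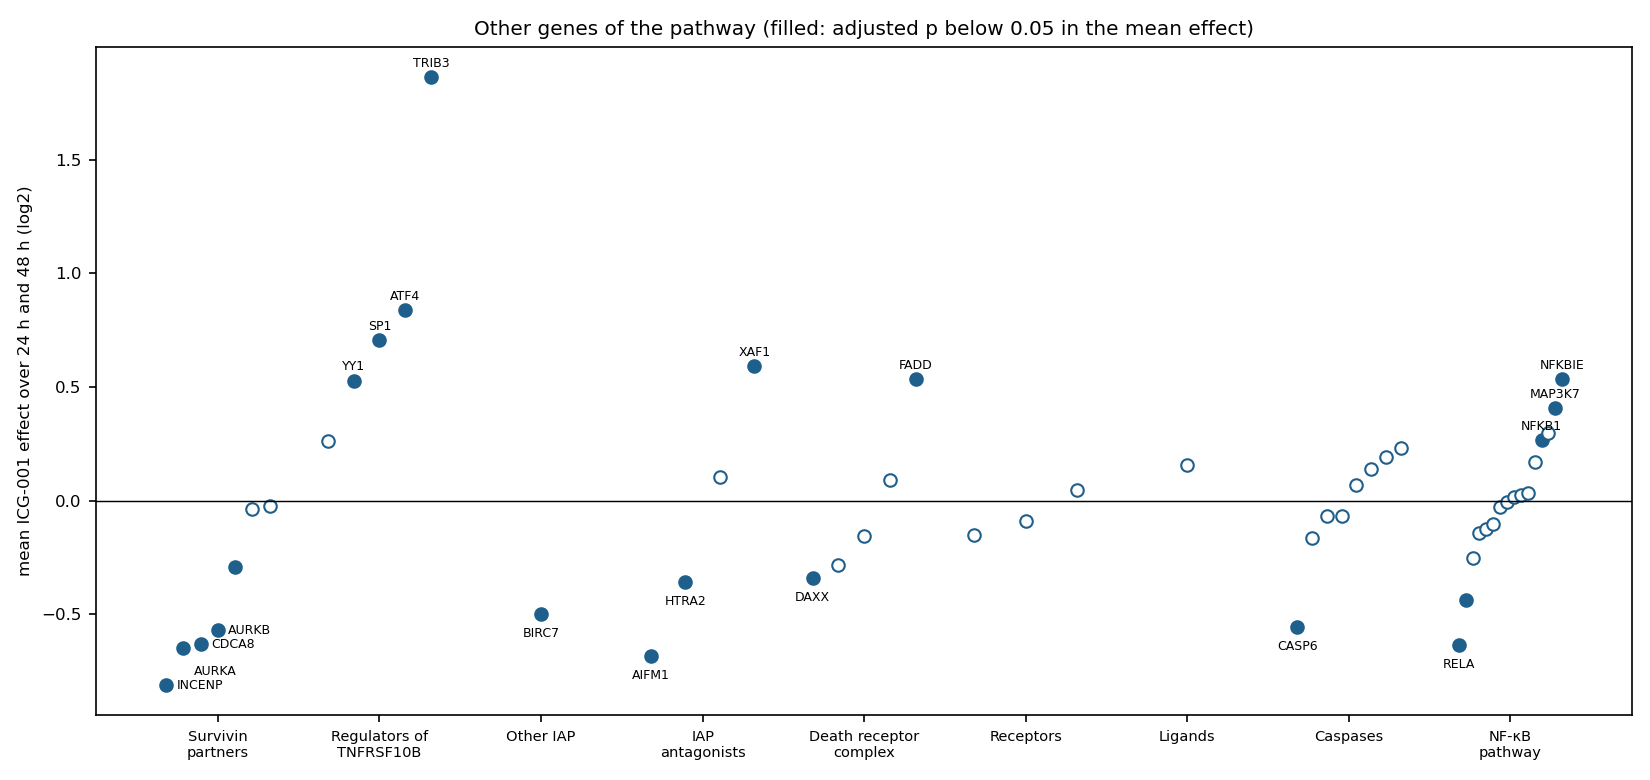
Mean ICG-001 effect over 24 h and 48 h (log2, vertical axis) of the 50 measured genes of the pathway, by list (horizontal axis); a point is a gene, filled where the adjusted p was below 0.05. Among the survivin partners 5 of 7 genes are filled below 0, and among the regulators of TNFRSF10B 4 of 5 are filled above 0, TRIB3 highest at 1.86.

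The likeness of other probes to the brightest probe of BIRC5 and of TNFRSF10B is given as a description over the 10 replicates, which share the treatment and the arrays. For BIRC5 the highest Pearson correlations were with SPIN4 (0.940), GJA3 (0.932), SLF1 (0.923), SCARA3 (0.921) and METTL4 (0.920). For TNFRSF10B ILMN_1699265 they were with METTL13 (0.975), KBTBD6 (0.951), LRRC41 (0.936), ZMPSTE24 (0.932) and PNMA1 (0.931).

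**Figure D4:**
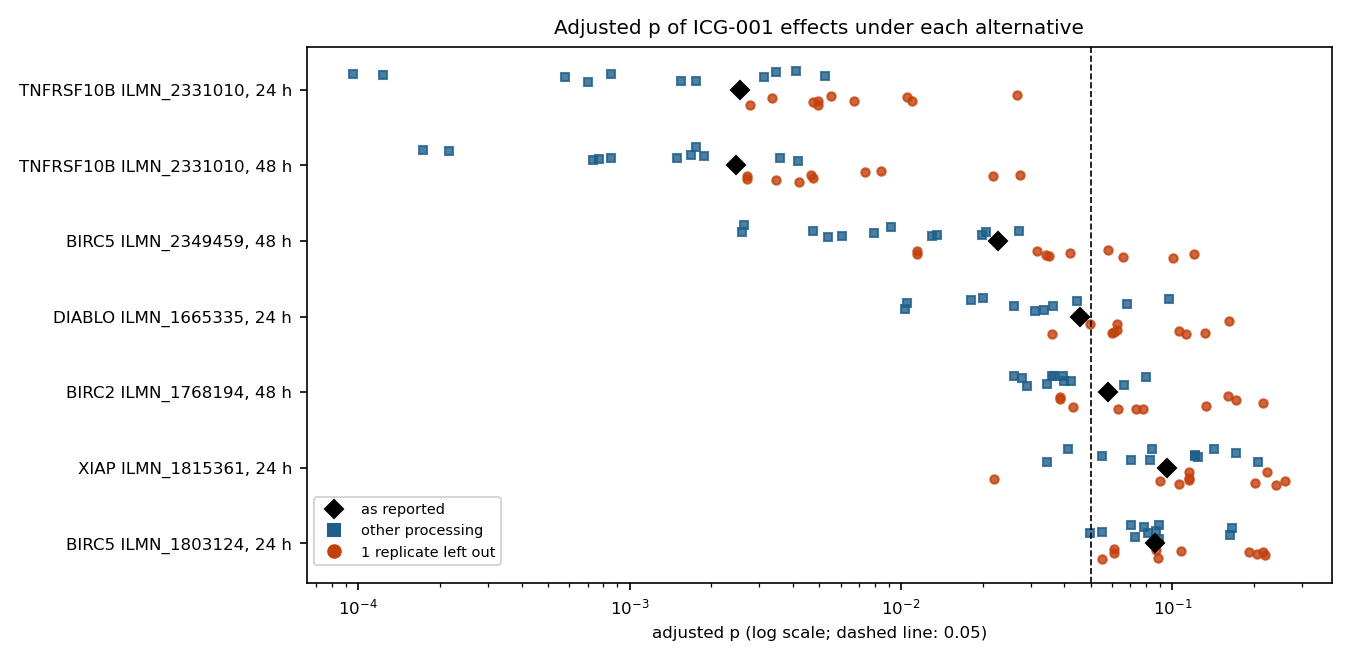
Adjusted p (log axis) of 7 ICG-001 effects as reported (diamonds), under other processing (squares) and with 1 replicate left out (circles); the dashed line marks 0.05. All points of TNFRSF10B ILMN_2331010 lie left of the line, while those of BIRC5 ILMN_2349459 at 48 h and DIABLO ILMN_1665335 at 24 h lie on both sides.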

How the data were processed

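The deposited intensities are mean probe signals of 14 arrays, not normalized, for 47323 probes, per the file headers; beside each stands the deposited detection p-value. The authors' second table, on a scale close to log2, was used as an alternative; the submitters' processing notes list lumi, with settings not given in the sources used here. Signals were background-corrected by neqc (limma 3.58.1, R 4.3.3; offset 16), which also quantile normalizes and takes log2. Arrays whose titles share a number (letters a and b) were averaged, giving 10 replicates. Means of the 4 groups were fitted with lmFit and eBayes (residual degrees of freedom 6, prior 4.98). Symbols came from the array annotation, updated through RefSeq. The rule for named genes took every member probe, up to 4 genes of a list past the threshold with the smallest p in the mean effect, at 24 h or at 48 h, and the 5 probes most like the brightest BIRC5 and TNFRSF10B probes. Members and lists were chosen with earlier results of these data known. Alternatives covered background, scaling, filters, blocks, array weights and each replicate left out. The fit was tried on simulated data with independent noise, without the difference of the b arrays, and no result above rests on it. Figures were drawn with Python and matplotlib. The number of arrays limits the precision.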

Additional observations from a re-analysis of the deposited data

How the results depend on the processing

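No paired analysis was possible because the title numbers of the groups do not recur across them. For the 13 member probes in 4 comparisons, 22 alternatives gave 1116 values: 1057 kept the side of the threshold, 21 lost a call, 38 gained one and 0 reversed. The BIRC5 call at 48 h and the DIABLO call at 24 h were the losses at a single time, and in the mean effect DIABLO ILMN_1665335 lost its call under 7. In the mean effect BIRC5 ILMN_2349459 (log2 0.28, adjusted p = 0.0504) passed under 10 of 22. Over all probes, leaving out 1 replicate gave 1885 to 3521 calls at 24 h (3794 with all, 1885 without the averaged DMSO pair of that time, 2479 without that of ICG-001), 1643 to 4644 at 48 h (4140 with all, 1643 without the averaged DMSO pair, 1844 without DMSO replicate 3, 2564 without ICG-001 replicate 1) and 5599 to 6865 in the mean effect (7355, or 4871 with 1 probe per gene). For the difference between the times it gave 0 to 4, the 4 without DMSO 24 h replicate 1. DMSO over time had 2 calls, and 0 to 82 with a replicate left out, the 82 without DMSO 24 h replicate 1. They numbered 7 with an offset of 50, 9 without background correction, 7 in the authors' values, 0 without a filter, 5 with the strict filter, 4 with 1 probe per gene, 16 with every array as a replicate, 15 with the title number as a block, 6 with letter b as a term, 0 without the b arrays and 0 with array weights. ICG-001 over time had 3 calls, 0 to 1 with a replicate left out, and in the same order 63, 81, 85, 5, 42, 17, 56, 43, 39, 0 and 23. The causes were not tested. Adjusted p-values for effects of n = 2 against n = 3 rest on the spread shared by all groups. A lone sample left in a group was assumed to vary like the others. Probes near background, such as TNFRSF10B ILMN_1812915, allow no more than a wide interval.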
